A study of Saccharomyces cerevisiae with 4 samples.

Results

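The genes described here make the yeast ribosome: the specific subunits of RNA polymerase I, the assembly factors of both ribosomal subunits, the core proteins of the snoRNPs and the RNA exosome. Members were chosen by gene name, as symbols that start with UTP, NOP, RRP, DBP, RPF, NSA, IMP, ENP or RPA and end in a number, together with 14 named assembly genes. The rule itself uses no measured value, but it was written with earlier results of these data known. The name rule met 93 array rows, and the 88 of these with a value on 3 or 4 arrays are the members, out of 6207 yeast rows. Of the 88, 58 had a value on all 4 arrays and 30 on 3. The other 5 rows had 1 or 2 values (UTP9, UTP20, SOF1, RPF2 and DBP1) and are not described further, and the H/ACA protein gene NOP10 was not analysed here. The rule also takes in 4 measured genes that act elsewhere, namely IMP1 and IMP2 of the mitochondrial inner membrane peptidase, IMP21, a transcriptional regulator, and DBP5, a helicase of mRNA export.

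The arrays compared Saccharomyces cerevisiae cells of a hog1 mutant kept for 3 h with 5 units/ml of Zymolyase 100T with untreated cells of the same mutant, both grown in YEPD medium at 24 °C. Zymolyase is an enzyme preparation that digests the beta-1,3-glucan of the cell wall, and Hog1 is the mitogen-activated protein kinase of the high-osmolarity pathway. Each of 2 cultures was split into a treated and an untreated part, and the pair of RNAs was hybridised to 2-colour arrays with the dyes swapped, which gave 4 arrays. On arrays 1 and 3 the treated RNA was labelled with Cy3, and on arrays 2 and 4 with Cy5. The hog1 mutation is in both channels of every array, wild-type cells were not analysed here, and HOG1 had no value on any array, so the strain could not be checked from it. Which arrays share a culture is not given in the sources used here.

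All values are log2 ratios, read as Zymolyase over untreated, so that a ratio below 0 stands for less RNA in treated cells. The direction is likely and not stated in the sources used here. It rests on the dye labels and on genes that are nearly silent in unstimulated cells. These were the mating gene FIG1 (mean 5.40 ± 0.88, SD, n = 4 arrays) and PGU1 of filamentous growth (5.38 ± 0.72, SD, n = 4 arrays). Of the 9281 values below 0 in this reading, 100% were log2 values of a ratio with 4 decimals, against 55.4% of those below 0 in the inverse. The decimals show how the ratio was stored and cannot say which condition is its numerator. With the opposite numerator every sign here would turn. The RNA is that of whole cultures, so fewer cells of a kind and less RNA per cell cannot be told apart.

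RNA polymerase I transcribes the long precursor of the large rRNAs in the nucleolus. The small subunit processome, built around the U3 snoRNP, folds and cleaves its 5′ part into the 40S subunit, other factors build the 60S subunit, box C/D and H/ACA snoRNPs methylate and pseudouridylate the rRNA, and the exosome trims and degrades precursors. These genes are known in yeast for moving together with growth rate, and for being lowered together in many kinds of stress.

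No single member passed the test, while nearly all lay slightly below 0. Of the 58 members with 4 values, 54 had a mean log2 ratio below 0, against 59.4% of the 2715 rows with 4 values. Their median was −0.28, against −0.05 over those rows, and the means ran from −0.58 for RRS1 to 0.32 for IMP21. Over the 88 members the median was −0.25 and 76 were below 0, against −0.05 and 58.5% over the 4090 rows with 3 or 4 values. Among the 54 members of assembly roles, 52 were below 0. The 2 above 0 were RRP1 of 60S assembly and the polymerase subunit RPA135.

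The test was limma on the 2 culture means, run for both ways in which the arrays can pair into cultures, with the larger p kept and adjusted over the 2715 rows. It called 0 of the 58 members at an adjusted p under 0.05, where 2.21% of all rows were called (0.184% lower and 2.03% higher), and the lowest adjusted p of a member was 0.144, for RRS1. At an unadjusted p under 0.05, 18 members were lower and 0 higher, that is 31.0% lower, against 6.59% of all rows lower and 8.14% higher, or 14.7% in either direction. Without array 2, 4 of 59 members were lower, against 3.72% of rows, and 4 of 58 without array 4, against 1.94%. Of the 58, 25 had all 4 values below 0, against 15.2% of rows, and 1, RRP1, had all 4 above 0, against 9.83% of rows. Some 23 of the 58 lay among the lowest 10% of rows. Member genes were chosen with earlier results known, so these shares are a description and carry no p of their own. Each of the 58 had a limma 95% interval that excluded a 2-fold change either way, with limits between −0.91 and 0.84. That interval is the one of the pairing with the larger p, which need not be the wider of the 2. With arrays 1 and 4, and 3 and 2, as cultures, limma gave every row the same variance. Intervals from that pairing therefore share 1 width, whatever a gene's own spread. RRP3 had −0.43 to 0.18 with an SD of 0.59 over its arrays. The 5 calls under that pairing, given below, rest on the same variance. Of the 58 means 0 were past 2-fold, against 2.39% of all rows. Of the 13 alternative fits 9 called 0 members, and the other 4 called 1 to 5, all of them lower. With arrays 1 and 4, and 3 and 2, as cultures, 5 were called (NOP6, NOP15, RRP42, RRS1 and UTP23), against 2.76% of rows called lower, and without array 3, 4 were called (NOP4, NOP13, NOP15 and RRS1), against 1.07%. With the 4 arrays as separate samples and a dye term RRS1 was called, against 0.7% of rows, and on the Cy5 arrays alone NOP4 and RRS1, against 0.592%.

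**Figure D1:**
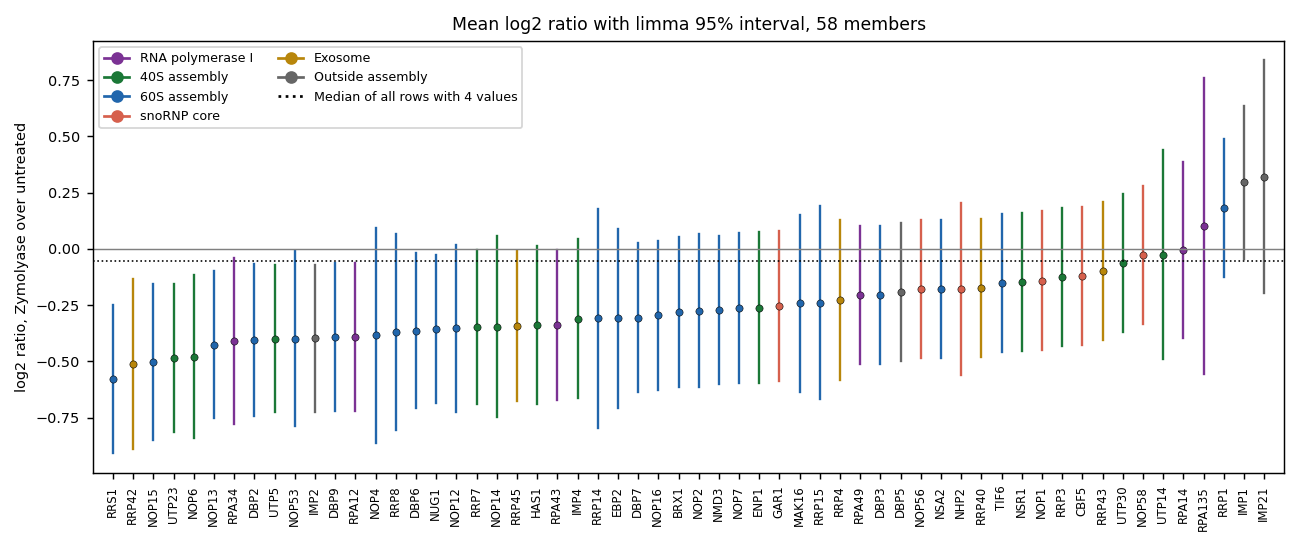
Mean log2 ratio, Zymolyase over untreated, of the 58 members with 4 values (points) with limma's 95% interval (bars), in order of the mean and coloured by role; the dotted line is the median of all rows with 4 values. Of the means, 54 lie below 0, and 18 intervals lie wholly below 0. Bars from the pairing of arrays 1 and 4, and 3 and 2, share 1 width.

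The shift was not equal on the 4 arrays. The 58 members had medians of −0.27, −0.33, −0.09 and −0.37 on arrays 1 to 4, against −0.06, −0.03, −0.06 and −0.05 over all rows with 4 values. On arrays 1, 2 and 4, 50, 48 and 47 of the 58 were below 0. On array 3, 36 were, which is 62.1%, against 55.4% of all rows. Array 3 gave the highest of the 4 values for 30 of the 58 members. Without array 3 the median over members was −0.31.

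**Figure D2:**
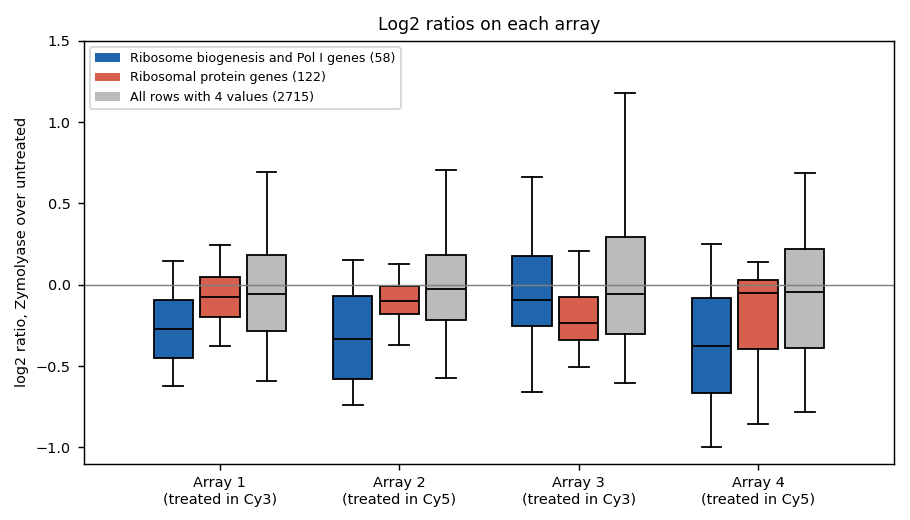
Log2 ratios on each array for the 58 members with 4 values, 122 ribosomal protein genes and all 2715 rows with 4 values; boxes span the quartiles with the median as a line, and whiskers the 5th to 95th percentiles. The members lie lowest on arrays 1, 2 and 4, and on array 3 their median of −0.09 is near the −0.06 of all rows.

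The size of the shift differed between the dye orientations. The median of the members' means was −0.33 on the arrays with treated RNA in Cy5 and −0.12 on those with treated RNA in Cy3, against −0.06 and −0.05 over all rows. In 38 of the 58 members both dye orientations had a mean below 0, against 34.6% of rows. In 14 the Cy3 mean was above 0 and the Cy5 mean below 0, and in 3 it was the other way round. Of the arrays with treated RNA in Cy3, array 1 had a member median of −0.27 and array 3 one of −0.09. A dye effect therefore cannot be told apart from a difference of array 3 alone. The part of the dye in the shift was not tested. The dye cancels in a mean over both orientations only where its effect is the same on every array.

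**Figure D3:**
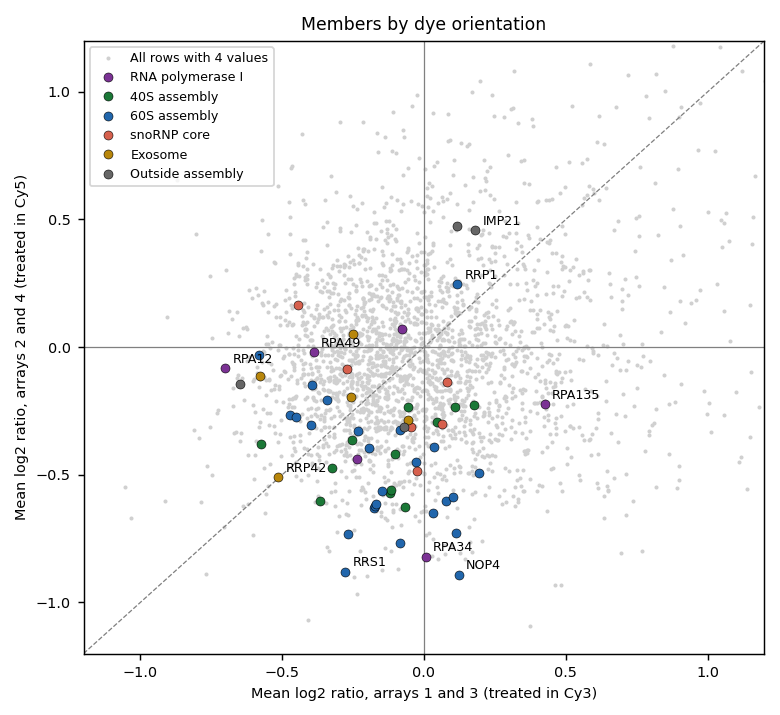
Mean log2 ratio on the arrays with treated RNA in Cy5 (vertical axis) against that on the arrays with treated RNA in Cy3 (horizontal axis), for the members by role and for all rows with 4 values (grey, drawn within the axes only); the dashed line marks equal values. Members below 0 in both orientations number 38 of 58, and more points lie below the dashed line than above it.

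Correlations between arrays over the 58 members were weak, and genes are not independent replicates. Pearson's r was 0.37 between arrays 2 and 4 and 0.13 between arrays 1 and 3, which share a dye orientation. It was −0.21 between arrays 2 and 3 and between −0.08 and 0.11 for the other pairs of opposite orientation. The order of members within the set is therefore poorly fixed, and neighbouring means in that order differ by less than the spread over arrays, whose median SD was 0.31.

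Of the polymerase I genes with 4 values, 5 of 6 had a mean below 0, and the median was −0.27. RPA43, which binds the initiation factor Rrn3, had −0.28, −0.51, −0.19 and −0.37 on arrays 1 to 4, a mean of −0.34 ± 0.13 (SD, n = 4 arrays; limma adjusted p = 0.334). It was below 0 on every array and varied least of the subunits. RPA12, which acts in RNA cleavage and termination, had −0.56, −0.25, −0.84 and 0.0823, a mean of −0.39 ± 0.40 (limma adjusted p = 0.292).

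RPA34 and RPA49 encode the partners of 1 heterodimer within the enzyme, and their values followed opposite dyes. RPA34 had 0.12, −0.63, −0.11 and −1.01 on arrays 1 to 4, so it was low where treated RNA carried Cy5 (mean −0.41 ± 0.51; limma adjusted p = 0.306). On the Cy3 arrays alone its mean was 0.0064. RPA49 had −0.46, −0.033, −0.32 and −0.0065, low where treated RNA carried Cy3 (mean −0.20 ± 0.22; limma adjusted p = 0.532).

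The largest subunit, RPA190, was measured on 3 arrays, with −0.49, 0.22 and −0.0792 on arrays 2 to 4. RPA135, the second largest, had −0.11, −0.70, 0.96 and 0.25, a mean of 0.10 ± 0.70. Both of these catalytic subunits had values of either sign, and without array 3 the mean of RPA135 was −0.17. RPA14, a small stalk subunit, had −0.40, 0.0114, 0.24 and 0.13, a mean of −0.00302. Its reading frame overlaps the annotated gene YDR157W, so labelled cDNA of the 2 may not be told apart. Of the 6 subunits tested, 3 (RPA12, RPA34 and RPA43) were lower at an unadjusted p under 0.05, against 6.59% of all rows.

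Of the 33 members of 40S assembly, 27 had a mean below 0 and 6 above, and the median was −0.17. Only 12 of them had 4 values, of which 12 were below 0 with a median of −0.32, and 7 were below 0 on all 4 arrays. UTP23, needed for cleavage at the early sites of 18S rRNA, had −0.60, −0.38, −0.14 and −0.83 on arrays 1 to 4 (mean −0.48 ± 0.29; limma adjusted p = 0.219). NOP6, a factor of early 40S assembly, had −0.63, −0.0514, −0.52 and −0.71 (mean −0.48 ± 0.29; limma adjusted p = 0.262). Both were below 0 on every array, and UTP23 was the lower by less than the spread over arrays. UTP5, of the UtpA complex that binds the rRNA precursor first, had −0.58, −0.22, −0.0684 and −0.73 (mean −0.40 ± 0.31; limma adjusted p = 0.289).

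Of the 12 members of this role with 4 values, 4 were lower at an unadjusted p under 0.05, against 6.59% of all rows. The fourth was RRP7, of the UtpC complex, with 0.20, −0.70, −0.33 and −0.55. NOP14 had −0.13, −0.14, −0.11 and −0.996, so that array 4 carried most of its mean of −0.35. NSR1, the yeast nucleolin, had a mean of −0.15 ± 0.17, and UTP14 had 0.66 on array 3 beside −0.31, −0.33 and −0.13 on arrays 1, 2 and 4.

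Blank values fell mainly on this role. Array 1 had a value for 59 of the 93 rows that met the name rule (63.4%), against 45.0% of all yeast rows, and it held the blank of 29 of the 30 members with 3 values. Of the 33 members of 40S assembly 21 had 3 values, and of the UTP genes 12 of 16. Members with 3 values were not part of the 4-array test, and their means below are the average of both dye orientations. In the 29 without array 1, array 3 was the only array of its dye orientation. It therefore weighed as much in their means as the other arrays together. Array 3 also had the median nearest to 0 (−0.09) over the members with 4 values. The median of the 30 was −0.13 and 22 of them were below 0, against −0.04 and 56.7% of the 1375 rows with 3 values. The part of the weight of array 3 in these values was not tested. Every value was below 0 in 9 of the 30, against 16.3% of those rows.

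RRP17, an exonuclease of 60S maturation, was the lowest of the 30 with −0.48, −0.44 and −0.33 on arrays 2 to 4. RRP12, which acts in export of both subunits, had −0.84, −0.26 and −0.15, and UTP6 of the UtpB complex −0.42, −0.37 and −0.34. These 3 were below 0 on each array that measured them. At the other end UTP4, of the same UtpA complex as UTP5, had −0.36, 0.66 and 0.16, a mean of 0.28. The UtpA members thus spread from UTP5 at −0.40 through UTP8 at −0.25 and UTP10 at −0.03 to UTP4. Over the 16 UTP genes with 3 or 4 values 11 were below 0 and the median was −0.05, the same to 2 decimals as that of all rows. Of the 16, 12 had 3 values, mostly without array 1, so array 3 weighed heavily in that median. The UTP genes with 4 values were UTP23, UTP5, UTP30 and UTP14, with means of −0.48, −0.40, −0.06 and −0.03.

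**Figure D4:**
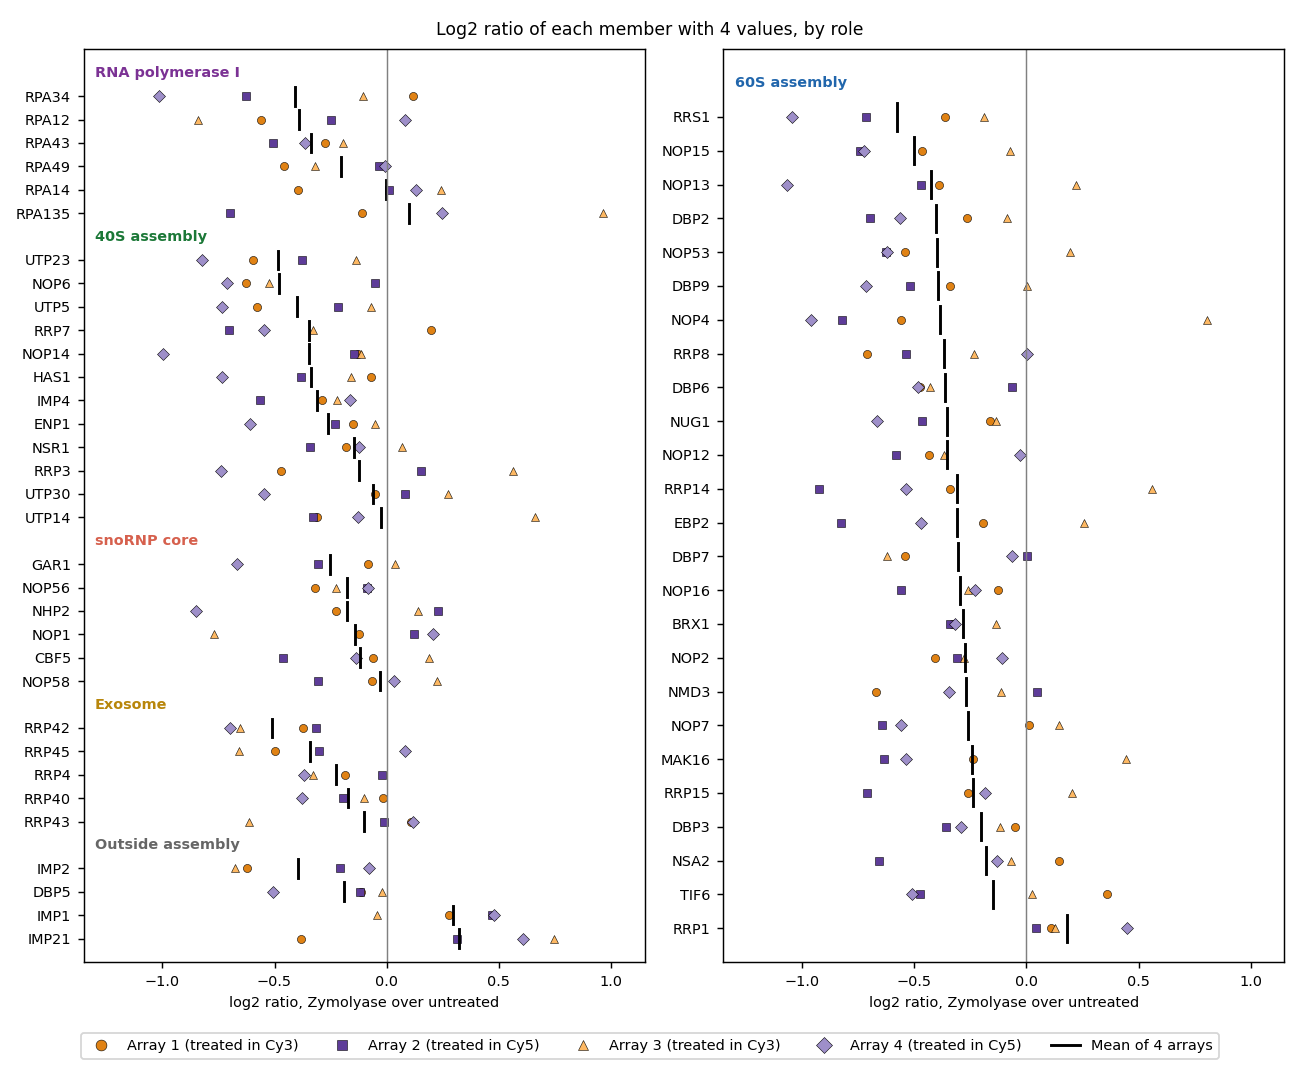
Log2 ratio, Zymolyase over untreated, of each member with 4 values, 1 symbol per array and a bar at the mean, grouped by role and ordered by mean. Most bars lie below 0, and the array 3 symbols often lie to the right of the others.

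Genes of 60S assembly held the lowest member and were the largest group with 4 values, with 24 of 25 means below 0 and a median of −0.31. At an unadjusted p under 0.05, 8 of the 25 were lower, against 6.59% of all rows. RRS1, which brings the 5S RNP into the precursor together with Rpf2, had −0.36, −0.72, −0.19 and −1.04 on arrays 1 to 4. Every value was below 0, and the arrays with treated RNA in Cy5 were the lowest. Its mean was −0.58 ± 0.38, a ratio of 0.67, with a 95% interval of −0.91 to −0.25 and a limma adjusted p = 0.144. It ranked 21st from the lowest of 2715 rows. It was called when arrays 1 and 4, and 3 and 2, were taken as cultures (limma adjusted p = 0.0036) and without array 3 (limma adjusted p = 0.00936), and over all alternatives its adjusted p ran between 0.0036 and 0.698.

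NOP15, which binds near the internal spacer of the 60S precursor, had −0.47, −0.74, −0.0711 and −0.72 (mean −0.50 ± 0.31; limma adjusted p = 0.228). DBP2, a helicase of rRNA processing and mRNA decay, had −0.27, −0.70, −0.0864 and −0.57 (mean −0.40 ± 0.28; limma adjusted p = 0.292). In both genes array 3 was the nearest to 0 and array 2 the lowest. NOP13, a nucleolar RNA-binding protein, had −0.39, −0.47, 0.22 and −1.07, and NOP53, which recruits the exosome to the precursor, −0.54, −0.63, 0.19 and −0.62. Both were below 0 on 3 arrays and above it on array 3. Their means were −0.43 ± 0.53 and −0.40 ± 0.40.

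The same split by array was widest in NOP4, an RNA-binding factor of early 60S particles, with −0.56, −0.82, 0.80 and −0.96. Of the other 60S members, BRX1 was among the most even, with −0.33, −0.34, −0.14 and −0.32, and so was NOP2, a methyltransferase of 25S rRNA, with −0.41, −0.31, −0.28 and −0.11. Of the late factors, the export adaptor NMD3 had a mean of −0.27 ± 0.31, and TIF6, which keeps the 60S from joining the 40S, −0.15 ± 0.42. RRP1 was the one 60S member with 4 values above 0, at 0.11, 0.0442, 0.13 and 0.45 (mean 0.18 ± 0.18; limma adjusted p = 0.577).

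The dye gap was widest in 60S and 40S assembly. For 60S assembly the median of the members' means was −0.49 with treated RNA in Cy5 and −0.17 with treated RNA in Cy3, and for 40S assembly −0.40 and −0.11. The snoRNP core had −0.22 and −0.03, a narrower gap of the same sign. For polymerase I the 2 medians were −0.15 and −0.16, and for the exosome −0.20 and −0.26. Differences between roles were not tested.

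DEAD-box helicases, which remodel RNA along the pathway, had means below 0 in 9 of the 9 measured on 3 or 4 arrays and placed in an assembly role (DBP2, DBP3, DBP6 to DBP10, HAS1 and RRP3). Their means ran between −0.40 for DBP2 and −0.12 for DBP10. DBP6 had −0.48, −0.0631, −0.43 and −0.48, and HAS1, which acts in both subunits, −0.0714, −0.38, −0.16 and −0.74. DBP6 and HAS1 were below 0 on all 4 arrays. RRP3 had both signs, at −0.47, 0.15, 0.56 and −0.74.

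Core proteins of the snoRNPs had 6 of 6 means below 0 and a median of −0.16. At an unadjusted p under 0.05, 0 of the 6 were lower, against 6.59% of all rows. The H/ACA protein GAR1 had −0.0841, −0.30, 0.0376 and −0.67 (mean −0.25 ± 0.31; limma adjusted p = 0.419). NHP2, of the same particle, had −0.23, 0.23, 0.14 and −0.85 (mean −0.18 ± 0.49), and its mean turned to 0.0916 without array 4. CBF5, the pseudouridine synthase, had a mean of −0.12 ± 0.27.

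Of the box C/D proteins, NOP56 was below 0 on every array, at −0.32, −0.088, −0.23 and −0.0822. Its partner NOP58 had a mean of −0.03, and NOP1, the methyltransferase, −0.14 ± 0.44, with −0.77 on array 3 beside −0.12, 0.12 and 0.21 on arrays 1, 2 and 4.

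The exosome subunits with 4 values had 5 of 5 means below 0 with a median of −0.23. All 5 were below 0 on array 3, where their median was −0.61. Over the 7 subunits with 3 or 4 values, 6 were below 0 and the median was −0.18. RRP42, a subunit of the exosome ring, had the second lowest mean of the members, with −0.37, −0.32, −0.65 and −0.70 on arrays 1 to 4. Every value was below −0.30 and the SD was 0.19, the smallest spread among the 10 lowest members with 4 values (mean −0.51, 95% interval −0.89 to −0.13; limma adjusted p = 0.251). RRP45 had −0.50, −0.30, −0.66 and 0.0804 (mean −0.34 ± 0.32; limma adjusted p = 0.329). RRP4, of the RNA-binding cap, had a mean of −0.23 ± 0.16 and RRP43 one of −0.10 ± 0.35. RRP6, the nuclear exonuclease, had 0.0588, −0.0701 and 0.24 on arrays 2 to 4, a mean of 0.0387.

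The 4 genes that meet the name rule but act elsewhere held both of the highest means. IMP21 had −0.38, 0.31, 0.74 and 0.61 (mean 0.32 ± 0.50), and IMP1 0.28, 0.47, −0.0414 and 0.48 (mean 0.30 ± 0.24; limma adjusted p = 0.376). IMP2 had −0.62, −0.21, −0.68 and −0.0805 (mean −0.40 ± 0.30; limma adjusted p = 0.292). IMP1 and IMP2, subunits of 1 peptidase, thus had means of opposite sign. DBP5 had a mean of −0.19 ± 0.22. Without these 4 the median over members was −0.25.

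Further genes of the pathway outside the name rule lay in the same range. Of 108 such genes 65 had 4 values, of which 57 were below 0 with a median of −0.21. At an unadjusted p under 0.05, 10 of the 65 were lower and 0 higher, against 6.59% and 8.14% of all rows. After adjustment limma called 0 of the 65, against 2.21% of all rows. Over the 90 with 3 or 4 values, 69 were below 0 with a median of −0.16, against 58.5% and −0.05 over all such rows. With 4 values, medians were −0.25 for 22 genes of 40S assembly, −0.22 for 23 of 60S assembly and −0.19 for 10 of polymerase I initiation and shared subunits. RNA polymerase III, which makes 5S rRNA and tRNA, had 4 of 7 subunits below 0 and a median of −0.11.

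The lowest of these was ESF1, an 18S processing factor, with −0.49, −0.35, −0.20 and −1.22 on arrays 1 to 4 (mean −0.56 ± 0.45; limma adjusted p = 0.203). PNO1, of late 40S assembly, was the most even of the genes named here from 4 arrays, with −0.51, −0.44, −0.40 and −0.37 (mean −0.43 ± 0.06; limma adjusted p = 0.266). ERB1, which forms a complex with Nop7, had −0.24, −0.86, −0.0380 and −0.72, and NOP7 itself 0.0106, −0.64, 0.14 and −0.56. Both partners were low on arrays 2 and 4. RPC19, a subunit shared by polymerases I and III, had −0.28, −0.51, −0.34 and −0.30, while UAF30 of the rDNA upstream activating factor had 0.82, 0.90, −0.39 and 0.43.

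Of the regulators, IFH1, a coactivator of ribosomal protein genes, had a mean of −0.05 ± 0.23. SCH9, a kinase of growth control, had 0.12, −0.28, 1.10 and −0.55, so that its mean of 0.10 ± 0.73 rested on array 3. Only 3 of the 11 regulators had 4 values. Of the 8 with 3 or 4 values, 3 were below 0, and the median was 0.0755.

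The products that these factors assemble were set beside them. The 122 ribosomal protein genes with 4 values had a median of −0.14, against −0.28 for the members and −0.05 for all rows. Their medians were −0.08, −0.10, −0.24 and −0.05 on arrays 1 to 4, so that they were lowest on array 3, where the members were nearest to 0. By mean, 54 of 58 members (93.1%) were below 0, against 112 of 122 ribosomal protein genes (91.8%). On all 4 arrays, 25 of 58 members were below 0, against 26 of 122 ribosomal protein genes. At an unadjusted p under 0.05, 2 of the 122 ribosomal protein genes were lower, against 6.59% of all rows. The difference between the 2 sets was not tested.

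Among the 93 rows, 3 pairs of genes are direct neighbours in the annotated gene order. RPA43 and RPA190 are divergently transcribed, with means of −0.34 and −0.03. RPF1 and GAR1 are convergent, at −0.24 and −0.25, and DBP8 and NMD3 lie in tandem, at −0.13 and −0.27. Both genes had means below 0 in each pair, as had 76 of the 88 members, so the pairs do not stand apart from the set.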

How the data were processed

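The authors deposited 1 table with a log2 ratio of the 2 channels for each array row and array; the sources used here do not state image analysis, normalization or the filter that left rows blank. Arrays 1 to 4 gave 2794, 4162, 5322 and 5127 values, and the number of arrays limits the precision. The signs of arrays 2 and 4 were turned. Of 6207 yeast rows (2 control rows left out), 5654 took their symbol from NCBI RefSeq's table of genes (R64) by locus tag.

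Rows with 4 values were tested with limma 3.58.1 (R 4.3.3): dye-swap pairs were averaged to 2 culture means, tested against 0 for both possible pairings, and the larger p was kept and adjusted by Benjamini-Hochberg. The steps were tested on simulated data. Errors are SDs over 4 arrays, which include technical spread. The members, role lists and tests were chosen with earlier results of these data known. Named genes were the 10 lowest and 5 highest members, the polymerase I subunits, up to 3 members per role and up to 2 genes per further list by size of mean, and 3 members with 3 values; others were named after their values were seen. Alternatives left out 1 array in turn, used 1 dye orientation, centred or scaled the arrays, or changed the pairing, the rows or the variance model.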

Additional observations from a re-analysis of the deposited data

Results flagged for a closer look

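In 4 members 1 array lay apart from the other 3 by Dixon's ratio, which sets the gap against the range of the values. They came out of 69 sets of 4 values tested, where chance gives about 3.45. The ratio does not measure the size of the gap. NOP53, a 60S factor, was 0.19 on array 3, against −0.54 to −0.63 on arrays 1, 2 and 4. NOP14, of 40S assembly, was −0.996 on array 4, against −0.11 to −0.14 on arrays 1 to 3. DBP6, a helicase, was −0.0631 on array 2, against −0.43 to −0.48 on arrays 1, 3 and 4. BRX1, of 60S assembly, was −0.14 on array 3, against −0.32 to −0.34 on arrays 1, 2 and 4. Its values were close together all the same, with an SD of 0.097.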

How the results depend on the processing

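Each log2 ratio sets treated against untreated RNA of 1 split culture, so the test was paired within each array. The arrays form 1 group, and their numbers do not say which of them share a culture. Called genes over the table numbered 60, and moved to 277 (72.9% higher, against 91.7%) with arrays 1+4 and 3+2 as cultures, 31 with equal scale, 119 for 4 arrays with a dye term, 146 on the Cy3 arrays alone and 118 on the Cy5 arrays alone. Called members numbered 0, and moved to 5 (NOP6, NOP15, RRP42, RRS1 and UTP23), 1 (RRS1, dye term) and 2 (NOP4 and RRS1, Cy5 arrays); 2.76%, 0.7% and 0.592% of all rows were called lower in these 3 fits. Without 1 replicate array, called genes ranged between 22 (array 2) and 129 (array 3), called members between 0 and 4 (NOP4, NOP13, NOP15 and RRS1, without array 3), and the median over members between −0.31 and −0.23. That median was −0.25, −0.21 with arrays centred and −0.12 on the Cy3 arrays alone, where members lower at an unadjusted p under 0.05 numbered 6 of 59. These numbered 10 of 58 with arrays centred, 4 of 59 without array 2 (all rows 3.72%) and 4 of 58 without array 4 (all rows 1.94%). For the Cy3 arrays alone and with arrays centred the share over all rows was not worked out, so those counts cannot be set against it.

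The counts of members below 0, with alternatives chosen after seeing the data, were 51 of 58 by mean and 20 of 58 on every array after centring (all rows 53.8% and 12.2%). By mean they were 71 of 87 without array 1, 51 of 59 without array 2, 53 of 58 without array 3 and 52 of 58 without array 4 (all rows 56.8% to 61.4%), and on every array left 37, 27, 37 and 28 (all rows 20.0% to 23.7%). Signs under the alternatives were followed only for the 38 genes named by rule. Among these, means that changed sign were those of RPA34 (0.0064 on the Cy3 arrays), RPA14 (0.0307 when centred, 0.0711 on the Cy5 arrays, and −0.16 to 0.16 without 1 array), RPA135 (−0.22 on the Cy5 arrays, −0.17 to 0.37 without 1 array), SCH9 (−0.42 on the Cy5 arrays, −0.15 to 0.34), NHP2 (−0.45 to 0.0916) and IFH1 (−0.16 to 0.0665). The cause was not tested. The other 32 of these 38 kept their sign under each alternative that tested them. That does not extend to the remaining members. In 14 of the 58 the Cy3 mean was above 0 and the Cy5 mean below 0. Among these were NOP4 (0.12 and −0.89) and TIF6 (0.19 and −0.49), which had means below 0 over both orientations. Fits without 1 array leave the dye uncancelled in 1 culture mean.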
